A study of Mus musculus with 21 samples.

Results

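Clusterin, transferrin and 7 cystatins were examined in the RNA-seq table of germ cells enriched from testes of 12-dpp B6 males. The 9 genes are Clu, Trf, Cst3, Cst6, Cst7, Cst8, Cst9, Cst12 and Cstb, out of 37620 genes in the table. They were selected by gene symbol, with the levels of Clu and Cst12 in these same libraries already known, so the levels of those genes are given as a description and not as a finding. The values are FPKM, the number of read fragments divided by the length of the transcript and by the depth of the library, which can be compared between genes because of the division by length. The 12 libraries carry the sample numbers 186wt, 343wt, 444wt or 456wt, with 3 libraries for each of the 4. All samples came from C57BL/6J (B6) mice at 12 days post-partum, carried no labelled mutation or treatment, and were enriched for germ cells by enzymatic digestion of the testis rather than by sorting. Averages over the 3 libraries of a number were taken first, and each mean ± SD is over the 4 numbers. The labels do not say whether the libraries of a number came from separate RNA. The paper describes RNA of 4 germ cell replicates, so the 3 libraries of a number may be repeats of the same RNA. The p-values thus measure the spread between these libraries, which may be technical, and may not cover the spread between animals.

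Many cystatins inhibit papain-like cysteine proteases, a group that includes the lysosomal cathepsins, whereas members of the reproductive subgroup, such as Cst8, Cst9 and Cst12, lack residues that classical cystatins use for this. Cst3 (cystatin C), Cst6 (cystatin E/M), Cst7 (cystatin F), Cst8, Cst9 (testatin) and Cst12 (cystatin T) belong to the secreted branch of the family, whereas Cstb (cystatin B) acts inside cells. Clu encodes clusterin, a secreted chaperone that is a major product of Sertoli cells, the somatic cells that surround and nourish germ cells. Trf encodes transferrin, the protein that carries iron in serum and, within the seminiferous tubule, from Sertoli cells to germ cells.

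The cells are labelled as spermatocytes. The table held both meiotic and Sertoli transcripts, however. The 14 meiotic markers found summed to between 446 (343wt) and 726 FPKM (444wt). The 12 Sertoli markers found, none of them one of the 9 genes, gave sums of 2026, 2161, 1298 and 1217 FPKM in the order 186wt, 343wt, 444wt, 456wt. Spermatogonial markers were present, with sums between 735 and 1091 FPKM, and of the round spermatid markers none had a mean above 2.09 FPKM and Prm2 was listed at 0 in all libraries. Depth was estimated at 12.7 to 17.5 M fragments per library, where M stands for mega.

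The cystatin genes differ in where they lie. On NCBI build 37 (mm9), Cst12 (148615097 to 148619282, plus strand), Cst8 (148624521 to 148631331, plus strand), Cst9 (148660883 to 148664474, plus strand) and Cst3 (148697458 to 148701428, minus strand) lie in a cluster of 9 cystatin and cystatin-related genes on chromosome 2 that spans 125335 bp. Cst7 lies apart on the same chromosome (150396151 to 150404680, plus strand), Cst6 on chromosome 19 (5344705 to 5349574, minus strand) and Cstb on chromosome 10 (77888415 to 77890364, plus strand). Clu is on chromosome 14 (66587320 to 66600385, plus strand) and Trf on chromosome 9 (103106331 to 103132774, minus strand). All 9 genes are annotated as protein-coding. The coding sequences of the 7 cystatins were 54.9% to 69.6% identical over their aligned bases, and none of them shared a stretch of 100 bases, the read length, with another coding gene. Trf is the exception among the 9 genes. It shares 63.7% of its exon bases, on the same strand, with the annotated gene Gm20425, and 60.9% of its 100-base windows, so the deposited value of Trf depends on how reads were divided between both.

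RefSeq promoter sequence was given for 5 of the 9 genes, namely Cst3, Cst7, Cst8, Cst9 and Cst12. The 250 bases before the RefSeq start are printed for Cst9 and Cst12, abundant genes of the same cluster whose levels went together across the samples below. The table's build is GRCm38.p6, and each sequence matched NCBI build 37 exactly at 1 place. That of Cst9 is chr2:148660633-148660882 and that of Cst12 is chr2:148614851-148615100, both on the plus strand. Capitals mark a GATA-type motif.
Cst9: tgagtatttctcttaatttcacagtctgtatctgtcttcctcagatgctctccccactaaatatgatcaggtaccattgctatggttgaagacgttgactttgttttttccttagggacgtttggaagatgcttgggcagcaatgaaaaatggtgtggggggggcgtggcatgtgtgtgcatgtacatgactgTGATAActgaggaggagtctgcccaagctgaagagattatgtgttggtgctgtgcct
Cst12: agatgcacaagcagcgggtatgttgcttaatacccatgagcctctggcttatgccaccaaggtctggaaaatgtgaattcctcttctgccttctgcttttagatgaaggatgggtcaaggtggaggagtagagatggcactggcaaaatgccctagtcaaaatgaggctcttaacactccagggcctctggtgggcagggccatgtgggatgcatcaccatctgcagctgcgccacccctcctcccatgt
Both strands were searched for the TATA box (TATAAA), the box that factor NF-Y reads (CCAAT), either of the forms that GATA factors bind (AGATAA and the alternative form TGATAA), the letters that SOX factors read (AACAAT), those of the nuclear receptor NR5A1 (AAGGTCA) and the E-box (CACGTG). The Cst9 sequence held TGATAA at position -57 from the start, and 16.6% of the 32851 promoters in the table held one of both GATA forms. None of the letters searched was in the Cst12 sequence. Of the other genes with a promoter in the table, Cst8 held AAGGTCA at position -47, and Cst3 and Cst7 held none. The RefSeq starts differ from the gene limits given above. The windows of Cst8 (chr2:148624325-148624574) and Cst3 (chr2:148701249-148701498) thus lie partly inside the annotated genes, as do the last bases of the Cst12 window. The Cst8 match lies in the part inside the gene. The shares of all promoters with the other motifs were 12.4% for TATAAA, 33.8% for CCAAT, 9.42% for AACAAT, 4.08% for AAGGTCA and 6.02% for CACGTG. A match describes the letters and is not a binding site, and a window without one says nothing of the factor.

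The 9 genes covered the whole scale of the table. Clu had a mean of 1844 ± 574 FPKM (SD, n = 4), was the 11th highest of all genes and made up 0.383% of the summed FPKM. Levels hold on the deposited scale, and scaling each library to a sum of 1000000 raised Clu to 3840 as a change of unit common to all genes. Cst12 followed with 547 ± 171 FPKM at rank 68, Cst9 with 476 ± 147 FPKM at rank 83 and Cst3 with 229 ± 30.02 FPKM at rank 216. Cstb had 38.5 ± 3.41 FPKM. Cst8 with 3.51 ± 1.44 FPKM and Trf with 3.23 ± 0.960 FPKM were close to each other, higher than 70.0% and 69.4% of the genes in the table, respectively. Cst6 had 0.152 ± 0.0473 FPKM. Cst7, which is known as a cystatin of white blood cells, had 0.0225 ± 0.0330 FPKM and was the lowest.

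**Figure D1:**
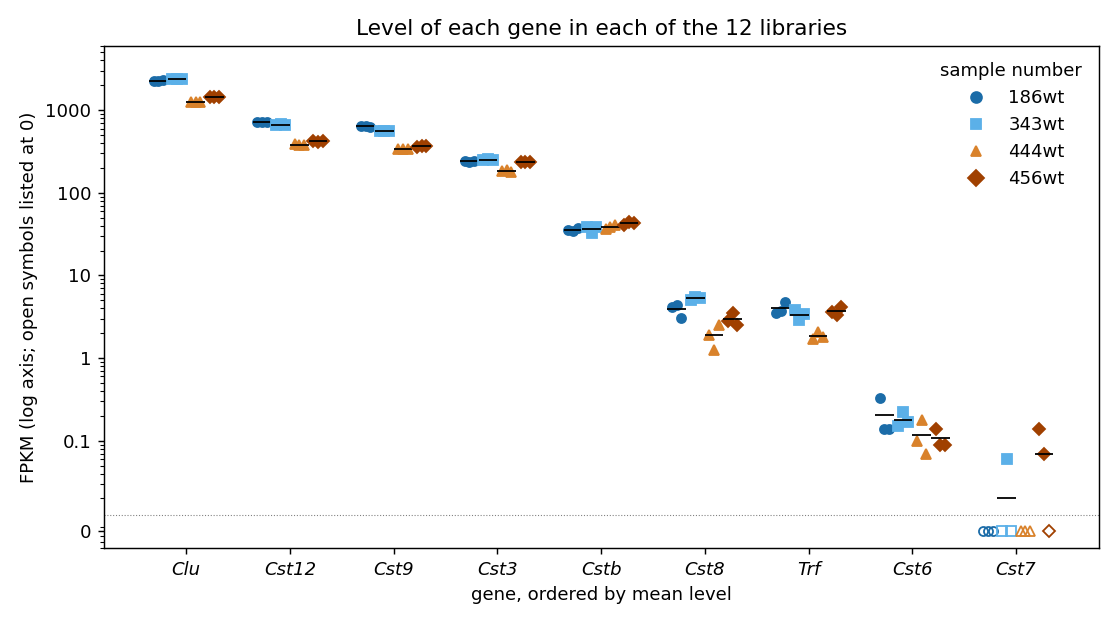
FPKM (log axis) of the 9 genes in each of the 12 libraries, with genes ordered by mean level, colours and symbols for the 4 sample numbers and a black line at the mean of 3 libraries. Clu, Cst12 and Cst9 are higher in 186wt and 343wt than in 444wt and 456wt, Cstb is highest in 456wt, and Cst7 is listed at 0 (open symbols) in 9 libraries.

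Clu was measured at 2287, 2276 and 2303 FPKM in the libraries of 186wt, against 2364, 2379.9 and 2397 FPKM in those of 343wt. In 444wt it was at 1243, 1257 and 1254 FPKM, and in 456wt at 1459.7, 1459 and 1449 FPKM. The libraries of 186wt and 343wt were all above those of the other two numbers, and no number overlapped another. Between the highest and the lowest sample mean Clu differed 1.90 times, or by 0.93 on the log2(FPKM + 0.1) scale (limma F-test over the 4 numbers, adjusted p = 2.91e-14). All 6 pairs of samples differed. The smallest difference was -0.06 ± 0.0085 (log2, SE) for 186wt minus 343wt (limma adjusted p = 0.000730), which no longer passed the threshold when the variance was fitted without a trend on the mean.

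Cst12 and Cst9 had a shared order of samples. Cst12 was at 718, 728 and 723 FPKM in the 186wt libraries, at 655, 675 and 654 FPKM in the 343wt, 386, 378 and 376 FPKM in the 444wt and 429.9, 413 and 424 FPKM in the 456wt libraries. Cst9 was at 649, 637 and 635 FPKM in the 186wt libraries, at 557, 558 and 562 FPKM in the 343wt, 338, 337 and 335 FPKM in the 444wt and 363, 371 and 369 FPKM in the 456wt libraries. Both were highest in 186wt and lowest in 444wt, and no sample overlapped another in either gene. The difference between highest and lowest sample was 0.93 (log2) in both, 1.90 times for each, with limma adjusted p-values of 9.28e-12 for Cst12 and 6.27e-13 for Cst9. All 6 pairs differed for each. The 186wt minus 343wt difference was 0.13 ± 0.018 for Cst12 and 0.20 ± 0.012 for Cst9 (log2, SE), the opposite sign from that of Clu. The ratio of Cst12 to Cst9 was 1.13 in 186wt, 1.18 in 343wt, 1.13 in 444wt and 1.15 in 456wt, thus nearly level while both genes moved 1.90 times. The ratio of Clu to Cst12 ran from 3.17 in 186wt to 3.60 in 343wt.

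Cst3, which encodes the widely expressed inhibitor cystatin C, was at 246, 239 and 245 FPKM in the 186wt libraries, at 252, 256 and 249 FPKM in the 343wt, 185, 192 and 179 FPKM in the 444wt and 235, 235 and 236 FPKM in the 456wt libraries. Only 444wt stood well below the others. The samples did not overlap, but the steps between 343wt and 186wt and between 186wt and 456wt did not pass the test of the pair (limma adjusted p = 0.123 and 0.113). Both passed when libraries were rescaled by median ratios or when 444wt was left out. The whole range was 0.45 on the log2 scale (F-test, limma adjusted p = 4.22e-08), and without 444wt it was 0.10. The ratio of Cst9 to Cst3 was 2.63 in 186wt, 2.22 in 343wt, 1.82 in 444wt and 1.56 in 456wt.

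Cstb went in another direction. It was at 35.0, 34.5 and 37.1 FPKM in the 186wt libraries, at 38.5, 32.9 and 38.2 FPKM in the 343wt, 36.3, 38.6 and 40.9 FPKM in the 444wt and 41.2, 44.9 and 43.4 FPKM in the 456wt libraries. The libraries of the first 3 numbers overlapped and those of 456wt lay above all of them. Its range was 0.28 (log2; F-test, limma adjusted p = 0.0101), and only 186wt and 343wt differed from 456wt in the pairs, by -0.28 ± 0.063 (adjusted p = 0.00386) and -0.24 ± 0.063 (adjusted p = 0.00881). The second was lost with median ratio scaling. Without 456wt the range was 0.12 and no longer passed the test (adjusted p = 0.319).

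Of the low genes, Trf was at 3.54, 3.72 and 4.77 FPKM in the 186wt libraries, at 3.77, 2.88 and 3.39 FPKM in the 343wt, 1.70, 2.05 and 1.80 FPKM in the 444wt and 3.66, 3.31 and 4.18 FPKM in the 456wt libraries. The libraries of 444wt lay below all others, and the other samples overlapped and did not differ in the pairs. The range of 1.07 (log2; F-test, limma adjusted p = 0.000170) rested on 444wt, since without it the range was 0.25 (adjusted p = 0.362). Gm20425, which shares exons with Trf, had 5.41, 5.31, 2.64 and 6.31 FPKM in 186wt, 343wt, 444wt and 456wt. The sum of Trf and Gm20425, taken because reads cannot be assigned with certainty, was also lowest in 444wt, at 4.49 FPKM against 8.66 to 10.02 FPKM.

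Cst8, a cystatin known from the epididymis and from germ cells, was at 4.17, 4.45 and 3.06 FPKM in the 186wt libraries, at 5.03, 5.44 and 5.38 FPKM in the 343wt, 1.88, 1.26 and 2.53 FPKM in the 444wt and 2.85, 3.51 and 2.54 FPKM in the 456wt libraries. It was highest in 343wt, whose libraries lay above all others, and lowest in 444wt. The range was 1.49 (log2; F-test, limma adjusted p = 0.000695), the widest of the 8 genes tested, and it was 0.82 without 444wt. The value rests on few reads, with an estimated 473 fragments in all 12 libraries. Neither 343wt and 186wt nor 186wt and 456wt differed in the pairs (limma adjusted p = 0.186 and 0.201). The difference of 444wt minus 456wt, -0.66 ± 0.22 (limma adjusted p = 0.0425), passed the threshold narrowly. It was lost without the filter on low values, without the trend and with library number as a block. It also failed when any of 8 of the 12 libraries was left out, namely library 1 of each number, library 2 of 343wt, 444wt and 456wt, and library 3 of 343wt, and its adjusted p then ran from 0.00938 to 0.142 over the 12 libraries. The epididymal marker list was near 0, with sums of 0.0333, 0, 0.0867 and 1.34 FPKM in 186wt, 343wt, 444wt and 456wt. The cell type that the Cst8 reads came from was not tested.

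Cst6 and Cst7 were the lowest of the 9 genes. Cst6 was detected in every library and ran from 0.07 to 0.33 FPKM over the libraries, all samples overlapped, and its range of 0.51 did not pass the test (F-test, limma adjusted p = 0.438). About 108 fragments were behind it in all. Cst7 was listed at 0 in 9 of 12 libraries, at 0.06 FPKM in library 2 of 343wt, and at 0.14 and 0.07 FPKM in libraries 1 and 2 of 456wt. This is an estimated 3.78 fragments in all, so a difference between samples was not detectable at this depth. For 186wt and 444wt, with no fragment, the limit set by 3 fragments over 3 libraries is 0.0772 and 0.0736 FPKM. Fragment numbers and limits are estimated from the depth and cover counting error only. Cst7 did not reach the mean of 0.1 FPKM required for a test, so 8 of the 9 genes were tested.

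Of these 8, all but Cst6 differed between the 4 samples (7 genes), where 58.2% of all 20795 genes tested did. A difference was thus the usual case, and more so at high levels, since 84.5% of the genes averaging 10 FPKM or more differed, as did all 5 of the genes examined here that reach that level. The size of the difference was a median of 0.93 (log2) over the 8 genes, beside 0.55 over all genes tested and 0.33 over those of at least 10 FPKM. The 12 Sertoli markers had a median of 0.86, so a range of this size was not particular to the 8 genes. In the pairs, 3 of 8 genes differed between 186wt and 343wt, where 20.4% of all genes did. These were Clu, Cst9 and Cst12. The counts were 6 of 8 for 186wt against 444wt (42.4% of all genes), 4 of 8 for 186wt against 456wt (41.4%), 6 of 8 for 343wt against 456wt (41.7%) and 6 of 8 for 444wt against 456wt (28.2%). Between 343wt and 444wt, the highest and lowest samples of Clu, 6 of 8 differed (47.9% of all genes). All 6 were higher in 343wt, as were 17.5% of all genes, and none was lower, where 30.4% of all genes were. That pair was chosen for the values of Clu, so its count of Clu is no evidence.

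The Sertoli list moved in the direction of Clu, Cst12 and Cst9. Its 12 genes had geometric means of 99.1, 101.0, 63.1 and 59.95 FPKM in 186wt, 343wt, 444wt and 456wt, a range of 0.75 (log2). As a mean the list was lowest in 456wt, whereas those genes were lowest in 444wt. Single genes of the list varied in this. Inha, Cldn11, Shbg, Gata1 and Fshr were also lowest in 444wt, and the rest of the list in 456wt. All 12 differed between samples (58.2% of all genes), and 12 of 12 were higher in 343wt than in 444wt (17.5% of all genes). In that pair the meiotic list went the other way, with 14 of 14 genes lower in 343wt (30.4% of all genes). So did 9 of 10 spermatogonial genes. This opposition did not hold for every pair. The meiotic sums of 186wt and 456wt were 551 and 546 FPKM, where the Sertoli sums were 2026 and 1217 FPKM. In bulk samples fewer cells of a type and less RNA per cell cannot be told apart, and the part of either in the values of the 9 genes was not tested. Other somatic lists had orders of their own. The 7 Leydig genes summed to 16.4 FPKM in 444wt and 59.4 to 120.2 FPKM in the other samples. The 9 macrophage genes summed to 12.1 FPKM in 444wt and 25.5 to 53.4 FPKM elsewhere. The 7 endothelial genes summed to 47.5 FPKM in 456wt and 19.9 to 28.9 FPKM elsewhere. The sum of 6 peritubular myoid genes was lowest in 343wt (261 FPKM) and highest in 456wt (1161 FPKM).

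**Figure D2:**
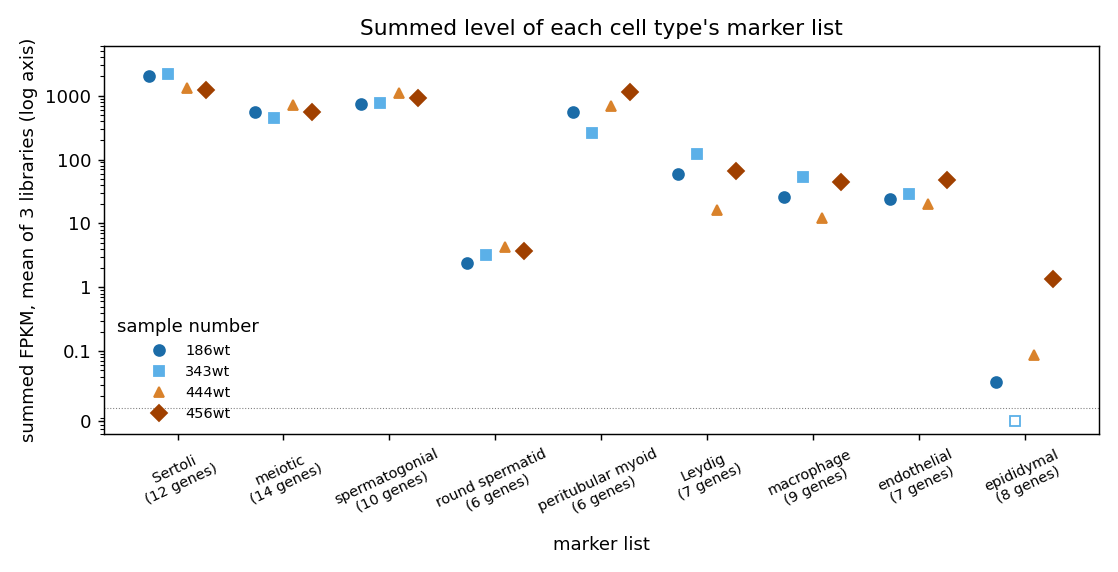
Summed FPKM (log axis, mean of 3 libraries) of each cell type's marker list in the 4 sample numbers, with the number of genes found under each list name. The Sertoli sum is higher in 186wt and 343wt, the meiotic sum is highest in 444wt, the Leydig and macrophage sums are lowest in 444wt, and the epididymal sum lies at or below 1.34 FPKM.

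To describe the 9 genes against the Sertoli transcripts of the same library, the mean log2 value of the 12 Sertoli genes was subtracted in every library and the tests were repeated. Clu, Cst12 and Cst9 then differed by 0.29, 0.28 and 0.28 between the highest and lowest sample, which is 31.5%, 29.8% and 29.7% of their range before. With the median of the list in place of the mean these ranges were 0.52, 0.45 and 0.43. The remaining differences still exceeded the spread of the libraries (F-test, limma adjusted p = 1.77e-09 for Clu, 2.79e-07 for Cst12 and 6.07e-09 for Cst9). That test was passed by 82.1% of all genes. Relative to the mean of the list Clu, Cst12 and Cst9 were all lowest in 444wt, where Clu was 0.22 ± 0.012 (log2, SE) below 186wt. Some genes of the list were themselves lowest in 444wt as deposited. Ranges of single list genes as deposited ran from 0.59 (Wt1) to 1.13 (Rhox8), beside 0.75 for the list mean. Single list genes thus departed from that mean as well, and whether Clu, Cst12 and Cst9 departed more was not tested. Without 444wt the range relative to the list was 0.07 for Clu, 0.16 for Cst12 and 0.22 for Cst9.

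Cst3 and Cstb ranged more widely than before, and Trf about as much. The list itself ranged by 0.75 (log2), so subtracting it gives a gene that does not follow the list a range by construction. Such a range and its p-value are not evidence of a difference of the gene's own. This also applies to the share over all genes, given above and below, and to the median ranges over all genes given below. Relative to the list, Cstb ranged by 1.01 (adjusted p = 1.75e-08 by limma), 358% of its range as deposited, from a low in 186wt to a high in 456wt. Cst3 ranged by 0.68 (adjusted p = 5.97e-10 by limma), also from 186wt to 456wt, and by 0.26 without 456wt. Trf ranged by 1.04 (adjusted p = 0.000111 by limma), from 444wt to 456wt, and missed the threshold without 456wt (0.42, adjusted p = 0.0633). Cst8 ranged by 0.81 (adjusted p = 0.0158 by limma) and missed it without 343wt (adjusted p = 0.0522) or without 444wt (adjusted p = 0.0661). Cst6 did not pass (0.31, adjusted p = 0.782 by limma), except with a pseudocount of 1 FPKM, which is above its level in every library. In all, 7 of 8 genes differed relative to the list, where 82.1% of all genes tested did. The median range of the 8 genes was 0.50, beside 1.07 over all genes and 0.89 over those of at least 10 FPKM.

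**Figure D3:**
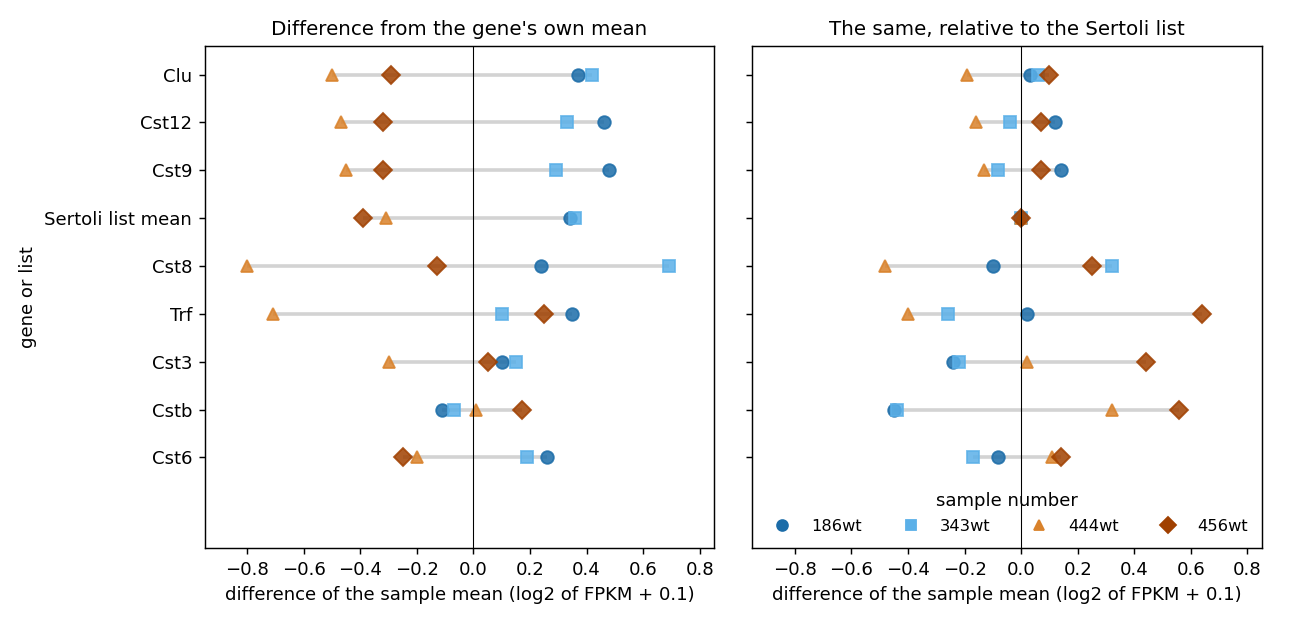
Difference of each sample mean from the gene's mean over the 4 samples, on the log2(FPKM + 0.1) scale, for the 8 genes tested and for the mean of the Sertoli list, as deposited (left) and after subtraction of that mean (right). Grey bars join the highest and the lowest sample. On the right the bars of Clu, Cst12 and Cst9 shorten to 0.29, 0.28 and 0.28, whereas that of Cstb lengthens to 1.01.

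Along the cluster on chromosome 2, abundant and barely detected cystatin genes were interspersed. In chromosomal order, Cstl1 had 0.0375 FPKM, Cst11 1.36 ± 0.342 FPKM, 8030411F24Rik 34.2 ± 7.51 FPKM, Cst12 547 FPKM, Cst8 3.51 FPKM, Cst13 0.045 FPKM, Cst9 476 FPKM, 9230104L09Rik 0.275 ± 0.201 FPKM and Cst3 229 FPKM (SD, n = 4). Cst8 and Cst13 thus lie between the starts of Cst12 and Cst9, which are 45786 bp apart, at levels far below both. The ratio of Cst12 to its neighbour Cst8 ran from 125.2 in 343wt to 201.1 in 444wt. The cystatin-related gene 8030411F24Rik had 45.1, 31.5, 28.0 and 32.3 FPKM in 186wt, 343wt, 444wt and 456wt. It differed between samples (range 0.69, F-test, limma adjusted p = 6.10e-06), with the highest and lowest samples of Cst12 but without the high level in 343wt.

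**Figure D4:**
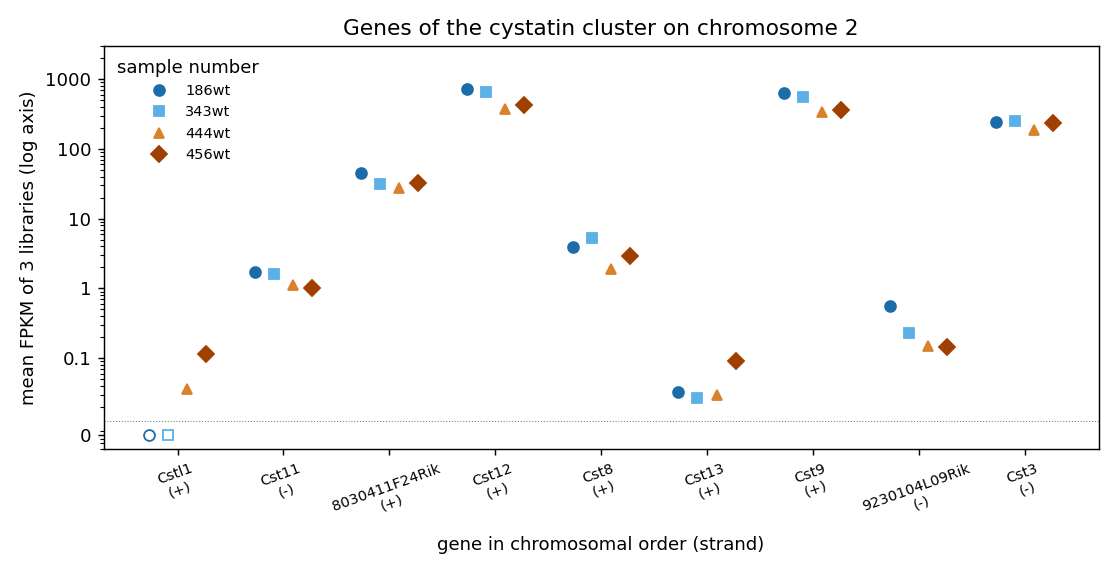
Mean FPKM (log axis) of the 9 genes of the cystatin cluster in chromosomal order, with the strand, in each of the 4 sample numbers; open symbols are listed at 0. Cst12, Cst9 and Cst3 lie above 185 FPKM in every sample, while Cst8 lies between 1.89 and 5.28 FPKM and Cst13 below 0.1 FPKM.

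Genes whose centred log2 values over the 12 libraries lay closest to those of Clu, Cst12 and Trf were sought among the genes averaging 10 FPKM or more. For Clu the closest 5 of 8226 were Reep1, a row listed as 6-Sep (a symbol turned into a date), 2610019F03Rik, Bcat2 and Ppt1, with root mean square differences of 0.021 to 0.045, beside a median of 0.45 over all genes compared. Reep1 had 111.0, 116.5, 60.3 and 69.7 FPKM in 186wt, 343wt, 444wt and 456wt. For Cst12 the closest gene was Cst9 (0.037), followed by 4933402E13Rik, the cathepsin gene Ctsl, Tmem184a and Cldn11, a claudin of Sertoli cell tight junctions that is in the Sertoli list (0.050). Trf had no gene as close. Its nearest were Art3, Lhfp, Rsph1, Aldh1b1 and Cd302, at 0.16 to 0.20. The value of Trf itself is low. The 12 libraries are 4 sets of 3, so this likeness describes an order of 4 samples.

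The 11 lysosomal cysteine proteases listed, the enzyme group that classical cystatins inhibit, gave sums of 1440.5, 1389, 868 and 955 FPKM in 186wt, 343wt, 444wt and 456wt. Of the 11, 7 were higher in 343wt than in 444wt (17.5% of all genes) and none was lower (30.4% of all genes). Ctsl, which encodes cathepsin L, was the most abundant with 1127, 1059.6, 638 and 679 FPKM in the 4 samples (range 0.82, F-test, limma adjusted p = 1.47e-12). Lgmn, which encodes legumain, a protease that some cystatins also inhibit, had 128.6, 130.4, 74.1 and 99.3 FPKM. The widest ranges were those of Ctss (1.99, with 1.06 FPKM in 444wt, its lowest, and 4.45 FPKM in 343wt) and Ctsc (1.5, with 1.25 and 3.75 FPKM in the same samples), cathepsins known for their roles in immune cells. Their lowest sample was also the lowest for the macrophage list.

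Of the other 19 cystatin family genes found, 6 reached 0.1 FPKM and 6 were at 0 in all libraries. Ahsg, which encodes the serum protein fetuin-A, had 10.8, 13.0, 6.59 and 7.44 FPKM in 186wt, 343wt, 444wt and 456wt (range 0.98, F-test, limma adjusted p = 8.04e-05). Fetub, which encodes fetuin-B, had 1.47 ± 0.208 FPKM (adjusted p = 0.156 by limma), Cst11 1.36 FPKM (adjusted p = 0.0512), 9230104L09Rik 0.275 FPKM (adjusted p = 0.157) and Gm5483 0.231 ± 0.145 FPKM (adjusted p = 0.0924). BC100530, a gene related to intracellular cystatins, was at 0.523 FPKM in 456wt and listed at 0 in the other samples (adjusted p = 0.000451 by limma). Stfa2 and Stfa2l1, below 0.1 FPKM on average, also had values only in 456wt, of 0.13 and 0.0633 FPKM. Neither the fragments behind the low value of BC100530 nor sequence shared with related genes was examined. Thus 2 of the 6 differed between samples, where 58.2% of all genes did. The list did not hold the cystatin-related gene 8030411F24Rik, which had 34.2 FPKM and differed between samples as given above.

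Genes that handle iron included some far more abundant than Trf itself. Of 19 iron handling genes tested, 16 differed between samples, 6 being higher and 7 lower in 343wt than in 444wt, beside 58.2%, 17.5% and 30.4% of all genes. The ferritin genes Fth1 with 395 ± 27.6 FPKM and Ftl1 with 379 ± 34.4 FPKM, which store iron, were the highest. Tfrc, which encodes the transferrin receptor and was named after its values were seen, had 46.6 ± 5.72 FPKM. The widest ranges were those of Cp, which encodes the iron oxidase ceruloplasmin (1.36, lowest in 343wt at 13.3 FPKM and highest in 456wt at 34.1 FPKM), and of Hfe, a regulator of iron uptake (1.11, lowest in 444wt at 12.1 FPKM and highest in 343wt at 26.2 FPKM). The lowest sample of Hfe was also that of Trf.

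Receptors of clusterin and the complement factors it binds formed 1 list with complement regulators. Of 15 tested, 10 differed between samples, 3 being higher and 5 lower in 343wt than in 444wt. Over all genes 58.2% differed, 17.5% were higher and 30.4% were lower, so these counts lie near the usual shares. Lrp1, an endocytic receptor, had 52.1 ± 3.91 FPKM and did not pass the test (adjusted p = 0.128 by limma). Lrp8, a receptor that binds clusterin, had 47.9, 66.1, 39.5 and 40.2 FPKM in 186wt, 343wt, 444wt and 456wt (range 0.74, F-test, limma adjusted p = 1.25e-07). Lrp2 (megalin), the receptor through which epithelia take up clusterin, was named after its values were seen and had 0.858 ± 0.258 FPKM. The widest ranges were those of the complement genes C6 (1.85, lowest in 444wt at 0.15 FPKM and highest in 186wt at 0.797 FPKM) and C7 (1.48, lowest in 343wt at 0.477 FPKM and highest in 456wt at 1.5 FPKM), both of them low.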

How the data were processed

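RNA was measured in 12 libraries of B6 germ cells. Paired reads of 100 bp were aligned by the authors to the transcriptome of NCBI build 37 (BowTie 0.12.9), without those of 2 or more mismatches, and turned into FPKM per gene by RSEM 1.2.8 with fragments of 280 ± 50 bp. The FPKM they deposited are rounded to 2 decimals, and a strand setting is not stated. RSEM divides reads that fit several transcripts, which matters for Trf and Gm20425. Depth was estimated from the FPKM steps that 1 fragment adds, since no counts were used.

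The genes, lists and tests were chosen with earlier results of these data known. The genes named were all 9 members, other cystatins of at least 0.1 FPKM, the 2 highest and the 2 most variable genes of the other pathway lists, and the 5 genes closest to Clu, Cst12 and Trf. Genes averaging 0.1 FPKM or more entered limma 3.58.1 under R 4.3.3 (lmFit, eBayes with trend), on log2(FPKM + 0.1), which understates changes of low genes, with Benjamini-Hochberg adjustment over 20795 genes and a threshold of 0.05. The test was also run on values minus the mean log2 value of the Sertoli list. The fits were tested on simulated data with independent libraries, which cannot show whether the p-values cover the spread between animals. Positions, exon overlaps and shared 100-base windows came from GENCODE M1 on NCBI build 37. Python 3.11.15, numpy 2.4.6, pandas 2.3.3, biopython 1.88 and matplotlib 3.10.9 were used. The alternatives were other pseudocounts, filters and scalings, a block on library number, a fit without trend, each library or sample left out, the median of the Sertoli list and, added after the data were seen, Trf summed with Gm20425. The 9 ChIP-seq, Affinity-seq and input samples were not analysed here.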

Additional observations from a re-analysis of the deposited data

Results flagged for a closer look

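For each of 22 values, the levels of the 9 genes and the sums of the 13 gene lists, the gap of the highest or lowest of the 4 samples to its neighbour was divided by the whole range and compared with the critical value of Dixon's test. Chance gives about 1.1 such values in 22, and 1 was found. The summed FPKM of the epididymal list was 1.34 in 456wt and between 0 and 0.0867 in the other samples, a ratio of 0.935. Lcn5 and Crisp1 made up most of it, with 0.62 and 0.66 FPKM in 456wt. Cst8, which is known from the epididymis, was not highest in 456wt (2.97 FPKM) but in 343wt (5.28 FPKM), where the list was at 0. The source of this signal was not tested.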

How the results depend on the processing

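The number of genes that differed between the 4 samples stayed at 7 under every alternative except without 444wt (6, Trf being lost) and without 456wt (6, Cstb being lost), single libraries left out included. The number of member and pair calls was 31 of 48. It ran from 30 to 31 when single libraries were left out and from 29 to 32 under the other alternatives on all samples. With a sample left out only 24 member and pair combinations exist, and there were 18 calls without 186wt, 16 without 343wt, 15 without 444wt and 15 without 456wt. No call changed sign. Relative to the Sertoli list 7 genes differed, 7 with any single library left out, 6 without 343wt or 444wt (Cst8 lost) or 456wt (Trf lost), and 8 with a pseudocount of 1 FPKM (Cst6 gained) or without a filter (Cst7 gained). Subtracting a list mean gives genes near 0, and others that do not follow the list, a difference by construction. With the replicate block on library number, 30 calls remained of the 31 (that of Cst8 between 444wt and 456wt was lost) and 7 genes differed in both fits. Correlations of same-numbered libraries ran from -0.065 to 0.128, so the numbers were not taken as pairs. Scaling by median ratios shifted samples by -0.050 to 0.046 (log2). It lost Cstb between 343wt and 456wt and gained Cst3 for 186wt against 343wt and against 456wt. Leaving out library 2 of 444wt gained Cst3 for 186wt against 456wt (adjusted p = 0.0461 by limma), and leaving out library 2 of 343wt gained Cstb for 444wt against 456wt (adjusted p = 0.0299 by limma). Without 343wt the same call of Cstb was gained and that of Cst8 between 444wt and 456wt was lost, and without 444wt the same 2 calls of Cst3 as with median ratios were gained. The cause of these changes was not tested. Scaling to a sum of 1000000 moved the levels of Clu, Cst12 and Cst9 to 3840, 1139 and 991 and is a change of unit. Depth limits Cst7 and, less so, Cst6 and Cst8, and 4 samples, whose animals are not stated, limit all comparisons.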
